A study of Mus musculus with 8 samples.

Results

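Norrin, the secreted protein encoded by Ndp, and the genes of its receptor complex were followed in sorted cochlear hair cells. They were chosen by gene name and number 5 of the 25343 genes of the deposited table: Ndp for the ligand, Fzd4 for the frizzled receptor, Lrp5 and Lrp6 for the co-receptors and Tspan12 for the tetraspanin. All 5 passed the filter on low values. The study asked, per its title, about the signalling pathway of the Norrie disease protein. Cells carrying the hair cell reporter Atoh1-GFP were sorted from the cochlear sensory epithelium of mice of postnatal days 4 to 6, and their RNA was read as full-length cDNA. One group was WT (wild type) and the other Ndp KO (Ndp knockout), with 4 libraries in each, and both groups shared the reporter and a mixed C57BL/6 and 129 strain background. Each tube pooled 12 to 20 epithelia, so a library is a pool of several animals, and the labels do not give the structure of the knockout allele, the sex of the mice or their litters.

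Norrin is a small cystine-knot protein that binds the cysteine-rich domain of frizzled-4 although it is no Wnt protein. Frizzled-4 then signals together with LRP5 or LRP6, which recruit axin, and stabilised beta-catenin acts with TCF and LEF factors in the nucleus. TSPAN12 joins this receptor and strengthens its response to norrin. The route is best known from the endothelial cells of retinal vessels, and loss of NDP in humans causes Norrie disease, with blindness and, in many patients, progressive hearing loss.

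The ligand and the co-receptors are the members whose sequences bear most on what these libraries can tell, and they are shown here before the values. Ndp (ENSMUSG00000040138) lies on the minus strand at chrX:16885521-16911774 of GRCm38, the assembly also called mm10, with 1 annotated transcript of 3 exons. Its coding sequence of 396 bases starts in exon 2 and ends in exon 3. The exon 3 part, 228 bases at chrX:16886469-16886696 that hold 9 of the gene's 11 cysteine codons, is printed from GENCODE release M21 with the TGT and TGC codons of cysteine in capitals.
Ndp: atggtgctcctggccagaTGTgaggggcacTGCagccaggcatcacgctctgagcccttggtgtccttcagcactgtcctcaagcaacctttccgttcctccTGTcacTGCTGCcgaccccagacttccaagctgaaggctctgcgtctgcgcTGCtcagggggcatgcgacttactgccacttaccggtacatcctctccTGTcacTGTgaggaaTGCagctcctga
Cysteine takes 11 of the 131 codons of Ndp, or 8.40%, against 3.91% in Fzd4, 4.59% in Tspan12, 3.53% in Lrp5 and 3.29% in Lrp6. A knockout that removes only a part of the gene can leave reads from the rest, so the count of Ndp in the knockout libraries checks their label only as far as the deleted part was counted.

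Lrp5 and Lrp6 encode related single-pass receptors and could share reads, so their likeness was measured. Their coding sequences were identical at 68.4% of 4775 aligned bases. The longest exact run in common was 22 bases, shown in capitals within windows of 64 bases, of which 42 are the same in both genes. The Lrp5 window spans exons 6 and 7 on the minus strand (chr19:3628400-3630092) and the Lrp6 window exons 2 and 3 on the minus strand (chr6:134520549-134541670).
Lrp5: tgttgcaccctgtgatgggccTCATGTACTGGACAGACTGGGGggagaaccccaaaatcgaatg
Lrp6: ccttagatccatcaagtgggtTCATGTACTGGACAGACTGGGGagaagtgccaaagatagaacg
Among all words of 31 bases in the annotated transcripts of each member, 1.15% of those of Ndp also occurred in another gene, as did 0.15% for Fzd4, 1.64% for Lrp5, 1.12% for Lrp6 and 2.04% for Tspan12. Tspan12 (chr6:21771395-21852515, minus strand) was the only member sharing exon bases with another gene, the antisense Gm30270, and the library kit does not mark strand. Gm30270 itself had 0 to 19.6 normalized counts per library, against 3424 or more for Tspan12.

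In what follows, paired values give wild type first and knockout second. A ± beside a level is the SD over the 4 libraries of a genotype, and a ± beside a log2 difference is its SE.

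The libraries held 35077950 to 48329827 recovered reads. The authors' normalized counts were, within each library, whole multiples of a step, which was taken here as 1 read. That read was worth 0.780 to 1.16 normalized counts, so that 3 reads, the floor used here, were worth 2.34 to 3.49. Hair cell markers summed to 400559 to 439629 and 415461 to 488628 normalized counts, and all 15 markers passed the filter. Supporting cell markers were abundant as well, at 226254 to 440568 and 267895 to 357989, so the sorted material held transcripts of both. In such bulk libraries fewer cells of a type and less RNA per cell cannot be told apart. Across all 18203 genes tested, limma called 1 gene at an adjusted p under 0.05, which is 0.00549%, and 1014 genes, or 5.57%, had an unadjusted p under 0.05. On the recovered reads edgeR called 0 genes and had 4.55% at an unadjusted p under 0.05, and DESeq2 called 34 of 25078 genes, or 0.136%, and had 6.09%.

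Ndp, the ligand and the targeted gene, was lower throughout the knockout group, with no overlap between the genotypes, and it was not absent there. Its normalized counts in wild-type replicates 1 to 4 were 174, 90.4, 114 and 206. In knockout replicates 1 to 4 they were 10.5, 22.6, 66.8 and 45.1. The highest knockout library, replicate 3, lay under the lowest wild-type library, replicate 2, and knockout replicate 1 stood lowest of all. The means were 146 ± 53.2 and 36.2 ± 24.9, which puts the knockout mean at 24.8% of the wild-type mean. The knockout values rest on 10, 23, 74 and 41 recovered reads, which may be rounded estimates, all above the floor. Ndp was the only member whose genotypes did not overlap. Of all genes tested, 1.58% were without overlap and lower in the knockout, and 1.46% were without overlap and higher, 3.04% in all.

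The log2 difference of Ndp, knockout minus wild type on the log2(normalized count + 1) scale, was -2.20 ± 0.56, with a 95% interval of -3.45 to -0.96. Its unadjusted p was 0.00261, and the adjusted p over all genes was 0.895 by limma, so Ndp did not pass the threshold. On the recovered reads edgeR gave a log2 difference of -2.01 (adjusted p 0.996) and DESeq2 gave -2.01 (adjusted p 0.129). The authors' deposited table lists for Ndp, as knockout over wild type, a shrunken log2 fold change of -0.77 and an unshrunken value of -2.01, with an adjusted p of 0.129 by DESeq2. Leaving out each library in turn moved the limma difference between -2.59 and -1.74, and the adjusted p of all alternatives lay between 0.129 and 0.9997.

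**Figure D1:**
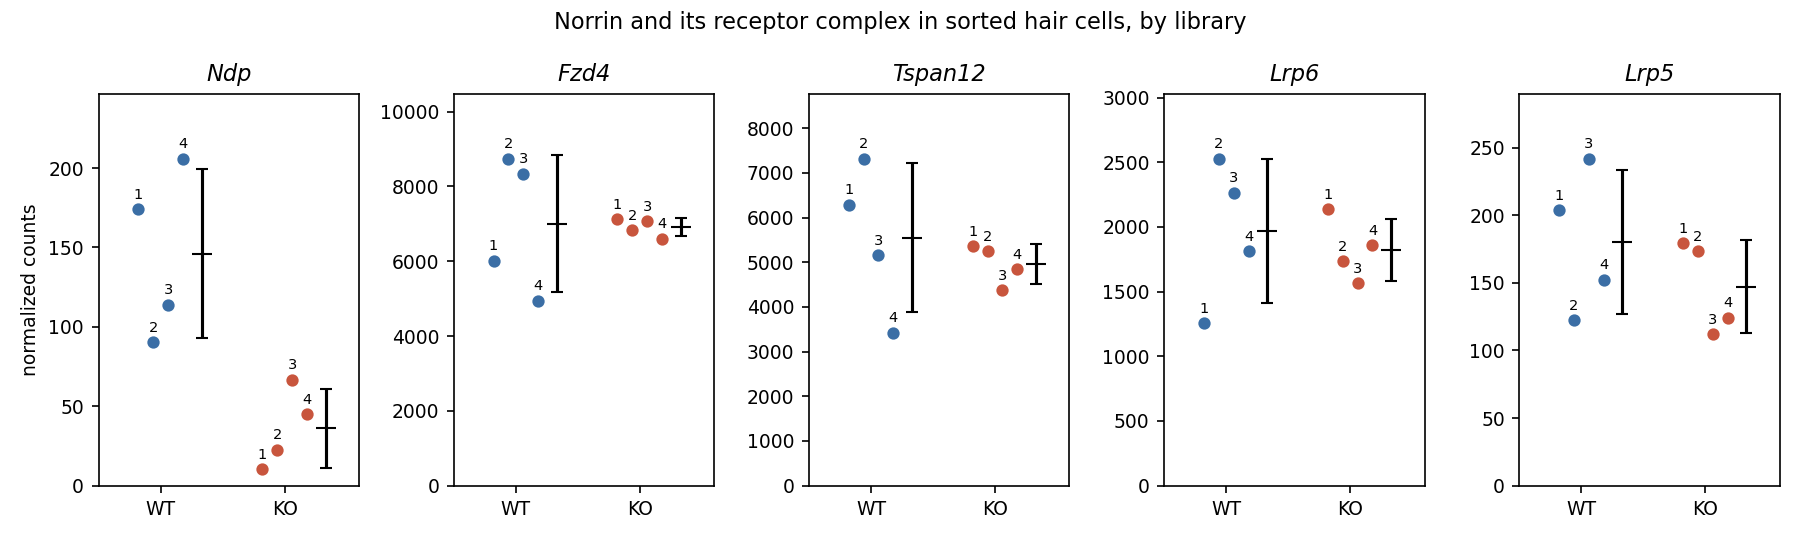
Normalized counts (vertical axis, each panel from 0) of the 5 genes in each library, with numbered points for the replicates of WT (blue) and KO (red) and, beside them, the mean with its SD. Ndp separates the genotypes, with 90.4 to 206 in wild type and 10.5 to 66.8 in the knockout, while the other 4 genes overlap.

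Ndp lies on the X chromosome, and the libraries differed in sex-linked transcripts. Xist, the RNA that silences an X chromosome in females, had 768 to 1982 normalized counts in wild type. In the knockout it had 412 to 918 in replicates 1, 3 and 4 and 0.981, the worth of 1 read, in replicate 2. Ddx3y, a gene of the Y chromosome, was counted in all 8 libraries, at 661 to 1310 in wild type and 491 to 2134 in the knockout, highest in knockout replicate 2. The part of the animals' sex in the Ndp values was not tested. Without both replicate 2 libraries, the log2 difference of Ndp was -2.28 (unadjusted p 0.00848, limma adjusted p 0.475).

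No neighbour of Ndp had a difference that passed the test. Within 2000000 bases of it 5 other genes were tested, and their log2 differences ran from -0.21 to 0.77 with a median of 0.04. By limma 0 of them had an unadjusted p under 0.05, and in 0 were the genotypes without overlap. On the lower side Maob, which encodes a monoamine oxidase, is nearest. Its counts were low, 35.9 ± 40.7 and 20.1 ± 6.45, and its log2 difference of 0.77 ± 1.27 goes against the order of these means and turned to -0.84 with edgeR and with DESeq2 and to -0.43 without wild-type replicate 3. On the upper side Efhc2 is nearest, with 291 ± 154 and 269 ± 64.7 and a log2 difference of 0.01 ± 0.37, which was -0.12 with edgeR and -0.11 with DESeq2. Efhc2 also turned to -0.28, -0.090 and -0.13 without wild-type replicate 3, wild-type replicate 4 and knockout replicate 2.

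**Figure D2:**
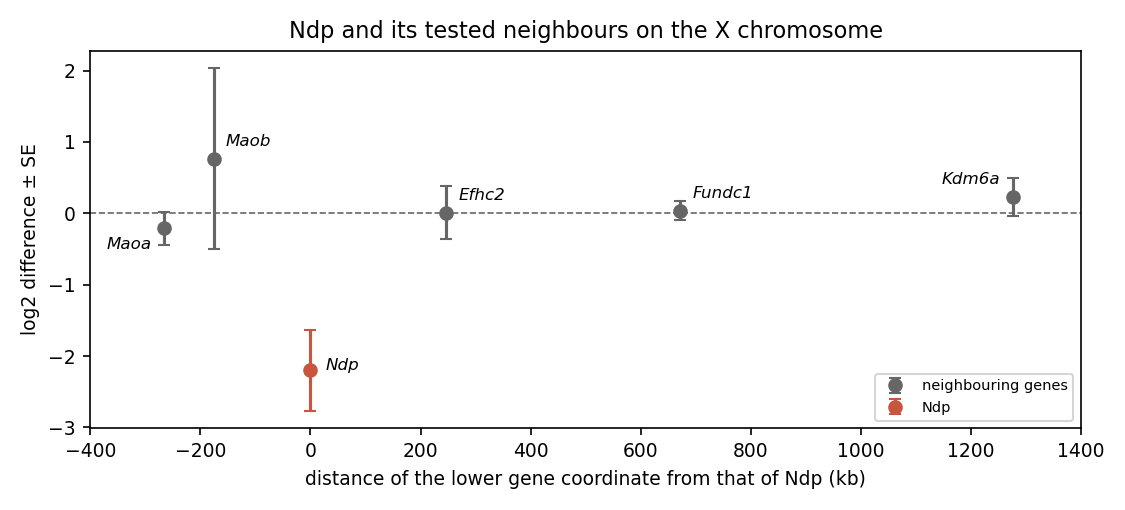
Log2 difference, knockout minus wild type, with its SE (vertical axis) of Ndp (red) and the 5 tested genes near it (grey), against the distance in kb of each gene's lower coordinate from that of Ndp. Ndp is at -2.20, and its neighbours lie between -0.21 and 0.77.

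Fzd4 (ENSMUSG00000049791, chr7:89404355-89413134, plus strand), the receptor that binds norrin, was abundant in both genotypes and showed no difference that passed the test. Its normalized counts in wild-type replicates 1 to 4 were 6011, 8737, 8337 and 4947. In the knockout replicates they were 7117, 6827, 7073 and 6604. All knockout values lay inside the wild-type range, where replicates 2 and 3 were high and replicates 1 and 4 low. The means were 7008 ± 1825 and 6905 ± 238. The log2 difference was 0.02 ± 0.18 (limma adjusted p 0.998) and turned to -0.027 with edgeR, -0.021 with DESeq2, -0.044 without wild-type replicate 1 and -0.14 without wild-type replicate 4. Its 95% interval, -0.38 to 0.42, leaves room for a knockout level between 0.767 and 1.33 times that of wild type.

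Tspan12 (ENSMUSG00000029669), the tetraspanin that strengthens the norrin response, was the member with the most reads per length. Wild-type replicates 1 to 4 had 6291, 7315, 5163 and 3424 normalized counts, and the knockout replicates 5357, 5249, 4378 and 4846. The genotypes overlapped, with wild-type replicate 2 the highest of the 8 libraries and replicate 4 the lowest. Means were 5548 ± 1667 and 4958 ± 444. The log2 difference of -0.11 ± 0.21 (limma adjusted p 0.988; 95% interval -0.58 to 0.36) turned to 0.039 without wild-type replicate 2 and to 0.010 without both replicate 2 libraries, which share a date in their titles.

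Lrp6 (ENSMUSG00000030201, chr6:134446476-134566965, minus strand) was the more abundant co-receptor. Its normalized counts were 1256, 2526, 2266 and 1813 in wild-type replicates 1 to 4 and 2137, 1737, 1566 and 1857 in the knockout replicates. The knockout again lay within the wild-type range, which ran from replicate 1 to replicate 2. The log2 difference was -0.07 ± 0.22 (limma adjusted p 0.995; 95% interval -0.55 to 0.41), from means of 1965 ± 557 and 1824 ± 240. Its sign was not stable, since it was 0.069 without wild-type replicate 2, 0.017 without wild-type replicate 3, 0.0022 without knockout replicate 3 and 0.089 without both replicate 2 libraries.

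Lrp5 (ENSMUSG00000024913, chr19:3584828-3686564, minus strand), the other co-receptor, had few reads. Wild-type replicates 1 to 4 held 204, 122, 242 and 152 normalized counts, and the knockout replicates 179, 174, 112 and 124. The genotypes overlapped, with the highest value in wild-type replicate 3 and the lowest in knockout replicate 3. Means were 180 ± 53.1 and 147 ± 34.1, a log2 difference of -0.27 ± 0.31 (limma adjusted p 0.972). The 95% interval of -0.96 to 0.42 is the widest of the 4 receptor genes and reaches from 0.515 to 1.34 times the wild-type level. In the pair of libraries that share a title date the difference had the other sign, 0.50.

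**Figure D3:**
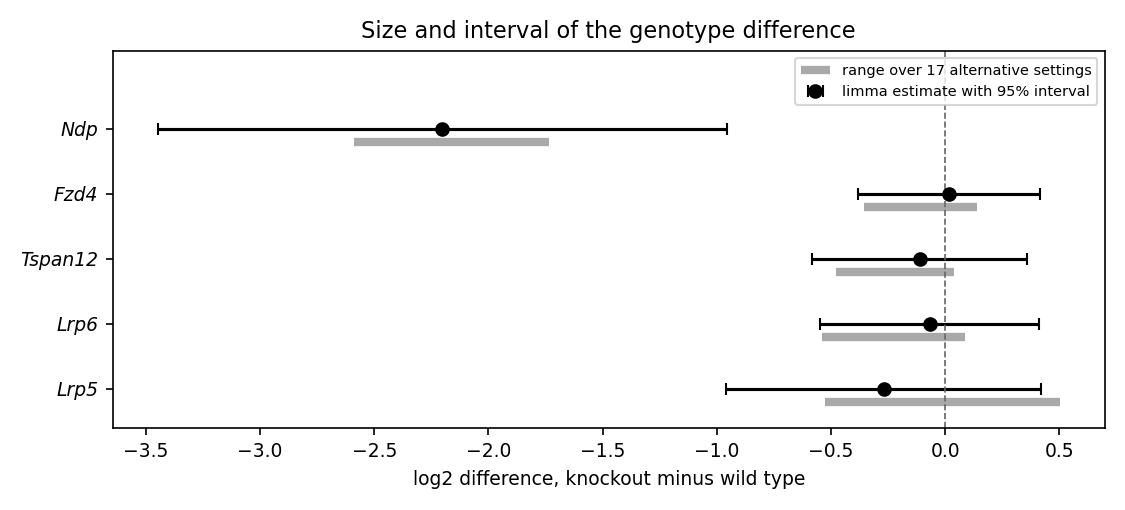
Log2 difference, knockout minus wild type (horizontal axis), of each gene, as the limma estimate with its 95% interval (black) and the range over 17 alternative settings (grey bars). The interval of Ndp, -3.45 to -0.96, lies below 0, and those of the other 4 genes include 0.

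The spread between libraries was smaller in the knockout for each of the 4 receptor genes. On the log2 scale the SD of Fzd4 was 0.391 in wild type and 0.0501 in the knockout, that of Tspan12 0.474 and 0.132, that of Lrp6 0.445 and 0.188, and that of Lrp5 0.434 and 0.339. The highest library had 1.77 times the Fzd4 count of the lowest in wild type and 1.08 times in the knockout. The wild-type SD was the larger in 70.5% of all genes tested, with medians of 0.443 and 0.279, so the direction is that of most genes. Ndp went the other way, with 0.542 in wild type and 1.12 in the knockout, where its counts were low. These spreads were not tested.

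Per length of exon, the order of the members was the same in both genotypes, while the place of knockout Ndp depended on the length used. Levels are given as normalized counts per kilobase of all annotated exons, with the SD over 4 libraries. Tspan12 had 1676 ± 503 and 1497 ± 134, and Fzd4 1043 ± 272 and 1028 ± 35.5. Their wild-type ranges, 1034 to 2209 and 736 to 1300, overlapped between libraries, while within each of the 8 libraries Tspan12 lay above Fzd4. Lrp6 followed at 144 ± 40.7 and 133 ± 17.6, below every Fzd4 value. Wild-type Ndp stood next at 75.3 ± 27.5, with a range of 46.6 to 106 that overlapped the lowest Lrp6 library at 91.9. Knockout Ndp, at 18.7 ± 12.8, overlapped Lrp5, which had 18.5 ± 5.46 in wild type and 15.1 ± 3.51 in the knockout. With the length of the longest coding transcript in place of all exons, Lrp5 had 34.9 and 28.5, Lrp6 210 and 195 and Tspan12 2228 and 1991, and knockout Ndp then came after Lrp5.

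Among all genes tested, the level per kilobase over the 8 libraries placed Tspan12 at percentile 91.6, Fzd4 at 86.9, Lrp6 at 51.5 and Lrp5 at 19.4. Ndp stood at percentile 41.3 in the wild-type libraries. Markers of endothelial cells, where the complex is best known, were low for the most part. Pecam1, an adhesion protein of endothelial cells, had 27.8 ± 11.6 and 20.9 ± 7.41 normalized counts, and Cdh5, their cadherin, had means of 11.5 and 20.9. Per kilobase Pecam1 reached 4.46 and 3.35, against 1043 and 1028 for Fzd4. The endothelial list as a whole, 8 of 12 genes tested, summed to 2758 to 4363 and 3112 to 4546, mostly from Egfl7 (3186 and 3445), and none of these 8 was at 0 in all libraries of a genotype. By sign, 7 of the 8 had a positive log2 difference and 1 a negative one, with a median of 1.07. Kdr, Cldn5 and Erg were not analysed here.

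Within its own receptor family Fzd4 ranked behind Fzd9. Of the 9 frizzled genes with an exon length, Fzd9 had 6298 ± 1575 normalized counts per kilobase in wild type and 4209 ± 939 in the knockout, Fzd4 came next and Fzd6 followed at 940 ± 308 and 946 ± 113. In wild type the Fzd6 mean lay within the Fzd4 range of 736 to 1300, so these neighbours do not differ beyond their spread there. In the knockout the Fzd6 mean lay below the Fzd4 range of 983 to 1059. The Fzd6 libraries overlapped that range, and the Fzd4 mean of 1028 lay within the SD of Fzd6. The 2 genes are therefore not separate in the knockout either. Fzd8 had no length and was not ranked. Lrp6 ranked 6 and Lrp5 ranked 9 of 12 genes of the LRP family, which Lrp10 led with 2234 ± 176 and 2367 ± 143. Tspan12 ranked 10 of 24 tetraspanins, where Tspan13 led with 12923 ± 1098 and 12818 ± 517.

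**Figure D4:**
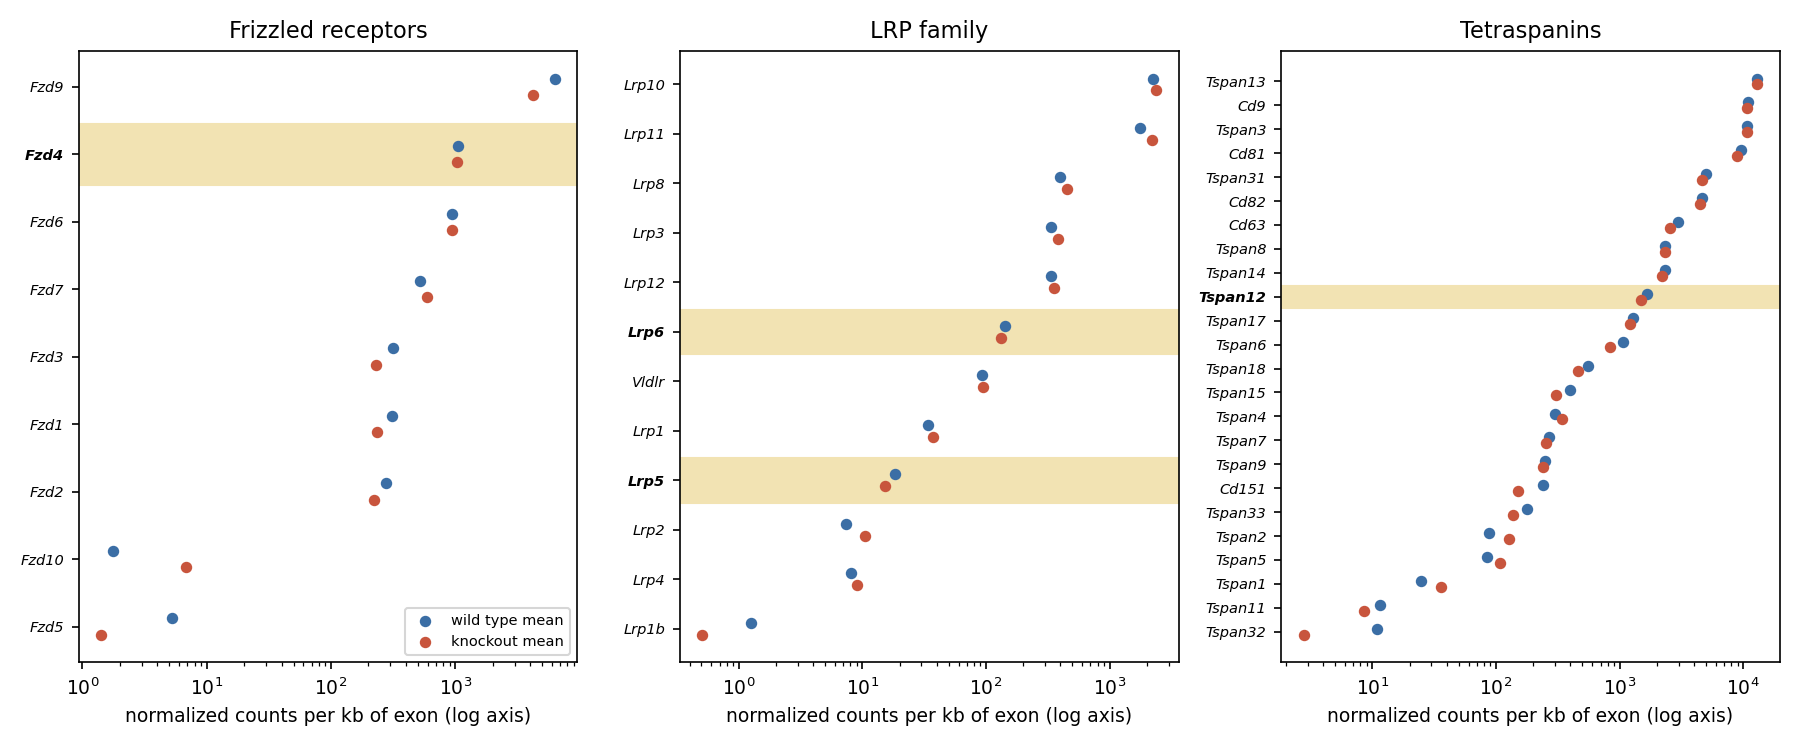
Mean normalized counts per kilobase of exon (log axis) of each frizzled, LRP family and tetraspanin gene in WT (blue) and KO (red), ordered by level, with the genes of the norrin receptor complex shaded. Fzd4 stands behind Fzd9, at 1043 in wild type, and Lrp6 lies above Lrp5 in both genotypes.

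Ratios within a library, which do not depend on the scaling between libraries, were compared next. Reads of Lrp6 outnumbered those of Lrp5 in all 8 libraries, by 12.0 ± 6.21 times in wild type and 12.7 ± 2.20 times in the knockout, and per kilobase of exon by 8.56 ± 4.42 and 9.06 ± 1.57 times. The log2 ratio of Lrp5 to Lrp6 was -3.45 ± 0.73 and -3.65 ± 0.26, a difference of -0.20 (exact two-sided permutation p 0.6, and 0.6 when adjusted over 3 ratios), and it was 0.072 without wild-type replicate 1. The log2 ratio of Tspan12 to Fzd4 reads was -0.35 ± 0.33 and -0.48 ± 0.14, a difference of -0.13 (exact permutation p 0.486, adjusted 0.6), which was 0.011 without wild-type replicate 1.

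Fzd4 took 17.1, 20.6, 22.2 and 17.3% of all frizzled reads in wild-type replicates 1 to 4 and 24.6, 22.6, 24.9 and 19.6% in the knockout replicates. Knockout replicate 4 lay inside the wild-type range and the other 3 lay above it. The mean shares were 19.3 ± 2.51 and 22.9 ± 2.41%, 3.63 percentage points apart (exact two-sided permutation p 0.114, adjusted 0.343, where 4 against 4 libraries can reach 0.0286). Fzd9, the frizzled with the most reads, had 14442 ± 3611 and 9652 ± 2153 normalized counts (log2 difference -0.58 ± 0.22, unadjusted p 0.0236, limma adjusted p 0.895), while the Fzd4 count itself differed by 0.02 on the log2 scale.

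Across the 8 libraries 6 pairs of receptor genes were correlated on the log2 scale. Fzd4 and Tspan12 had r 0.670 (exact permutation p 0.0675, adjusted over 6 pairs 0.278) and rho 0.476 (exact p 0.243, adjusted 0.729). Without wild-type replicates 2 and 4, the libraries farthest from the median of Fzd4, r was -0.431, so the relation rests on those libraries. Fzd4 and Lrp6 had r 0.626 (exact permutation p 0.0926, adjusted 0.278) and rho 0.714 (exact p 0.0576, adjusted 0.346), and r was 0.819 without the same libraries. Within wild type, with 4 libraries, r of Fzd4 with Tspan12 was 0.722 and with Lrp6 0.690, and within the knockout -0.030 and 0.065. Knockout Fzd4 hardly varied, with a log2 SD of 0.0501. In the other 4 pairs r was higher within the knockout. It was -0.123 and 0.958 for Lrp5 with Tspan12, and 0.121 and 0.780 for Lrp6 with Tspan12. For Lrp5 with Lrp6 it was -0.362 and 0.664, and for Fzd4 with Lrp5 0.0067 and 0.203. These values within a genotype were not tested. Over all 8 libraries the other 4 pairs had r between -0.054 and 0.205, and no pair passed the adjustment.

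The genes with the profile most like each member were taken as the protein-coding genes with the highest r over the 8 libraries among 14073. This is a description only, since the libraries differ in depth and in marker levels. How high the best of so many r would be by chance was not tested. For Ndp they were Fshb (r 0.962), Fam19a1 (0.953) and Lsm12 (0.944). Fshb had 22.1 ± 7.96 and 1.85 ± 3.02 normalized counts, and Fam19a1 32.7 ± 8.24 and 12.0 ± 12.6, so both rest on few reads. For Fzd4 they were Ints6 (0.994), Socs6 (0.985) and Uvrag (0.979). Prrc2c (0.959) and Bcr (0.956) followed Olfr1156 (0.960) for Lrp5, Cd55 (0.985), Fam118a (0.955) and Gfra2 (0.945) came first for Lrp6, and Slc35g1 (0.968), Tmem123 (0.967) and Alg9 (0.967) for Tspan12.

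The other genes of the pathway were read from lists by role. In the 4 pathway lists and the frizzled list together, without the 5 members, 68 of 81 genes were tested, and limma, edgeR and DESeq2 each called 0 of them. An unadjusted limma p under 0.05 was found for 4 higher and 4 lower genes, beside 3.10% and 2.47% of all genes, and the median log2 difference was -0.05, beside 0.02 for all genes tested. Among these 68 genes Frzb was the only one without overlap between the genotypes. Of all genes tested, 3.04% were without overlap in either direction, so Frzb alone is no excess over that share.

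Secreted and membrane regulators at the receptor had 24 of 32 genes tested, 2 higher and 1 lower at an unadjusted p under 0.05, with a median of 0.04. Frzb, a secreted frizzled-related protein that binds Wnt proteins, had 6255, 9326, 5196 and 6160 normalized counts in wild-type replicates 1 to 4 and 3878, 3694, 1905 and 4427 in the knockout replicates. Every knockout value lay below every wild-type value. Its log2 difference was -0.99 ± 0.27 (unadjusted p 0.00367, limma adjusted p 0.895, adjusted p from 0.182 to 0.9997 over the alternatives). Wif1, a secreted Wnt inhibitor, had 0.86 ± 0.38 (unadjusted p 0.0449) and Lgr6, an R-spondin receptor, 0.70 ± 0.30 (unadjusted p 0.0428), both with a limma adjusted p of 0.895. Lgr6 was lower in the knockout, at -0.42, in the pair of the shared title date. The most abundant regulators were Sfrp1, another secreted frizzled-related protein, with 25943 and 28705 mean normalized counts, and Kremen1, a receptor of DKK inhibitors, with 12981 and 13422. Supporting cell markers leaned the same way as Frzb, with 4 of 16 lower and 0 higher at an unadjusted p under 0.05, 2 of 16 lower without overlap and a median of -0.12, while 3 of 15 hair cell markers were higher and 0 lower, with a median of 0.06. The part of either cell type in the Frzb values was not tested. Of all genes tested, 2.47% were lower and 3.10% higher at an unadjusted p under 0.05, and 1.58% were lower without overlap.

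On the route from the receptor to beta-catenin all 24 genes were tested, with a median of -0.03. At an unadjusted p under 0.05, beside 3.10% higher and 2.47% lower of all genes tested, 0 were higher and 1 lower. Tcf7l1, a TCF factor that mostly represses its targets, was that gene, with 1420 ± 267 and 1012 ± 217 normalized counts, for a log2 difference of -0.49 ± 0.21 (unadjusted p 0.0394, limma adjusted p 0.895). Tcf7l2, a further TCF factor, had -0.38 ± 0.19 and the kinase gene Gsk3b, which marks beta-catenin for breakdown, -0.29 ± 0.15. Ctnnb1, which encodes beta-catenin, had 23762 ± 3404 and 22050 ± 2233 normalized counts, and Csnk1a1, casein kinase 1 alpha, 13301 ± 1099 and 13232 ± 1026. By sign, 11 of the 24 genes had a positive log2 difference and 13 a negative one, and all genes named here are among the negative ones.

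Targets and feedback genes of the pathway showed no gene at an unadjusted p under 0.05 among 14 of 15 tested, with a median of 0.10. Ccnd1, a cyclin gene, had the smallest p, with 2402 ± 1200 and 1429 ± 363 normalized counts, for a log2 difference of -0.65 ± 0.33 (unadjusted p 0.0783, limma adjusted p 0.909). It had the other sign, 0.16, in the pair of the shared title date. Notum, which encodes a Wnt deacylase, had 0.67 ± 0.50 and Sp5, a transcription factor gene, -0.23 ± 0.22, and both had the other sign in that pair, -1.19 and 0.21. Lgr5, an R-spondin receptor and Wnt target, had 4271 ± 411 and 4114 ± 1058 normalized counts.

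Of 12 genes known to respond to norrin in vessels, 7 were tested, with a median of -0.14. At an unadjusted p under 0.05, beside 3.10% higher and 2.47% lower of all genes tested, 0 were higher and 1 lower. That gene was Mfsd2a, a lipid transporter, with 1324 ± 450 and 895 ± 172 normalized counts, for a log2 difference of -0.53 ± 0.24 (unadjusted p 0.0496, limma adjusted p 0.895). Its genotypes overlapped, with 978 to 1981 in wild type and 687 to 1056 in the knockout. The amino acid transporter genes Slc7a1 and Slc38a5 had log2 differences of -0.38 ± 0.22 and -1.54 ± 1.41, the latter from means of 16.8 and 8.00 normalized counts. Slc2a1, the glucose transporter gene and the most abundant of the list, had 5101 ± 811 and 4610 ± 622. These 4 transporter genes are the ones with a negative log2 difference, and the other 3 of the 7 tested had a positive one. Sox17 was at 0 in all wild-type libraries, and Cldn5 was not analysed here.

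Among the 10 frizzled receptor genes 2 were higher and 1 lower at an unadjusted p under 0.05, with a median of -0.15. Beside them, 3.10% of all genes tested were higher and 2.47% lower at that threshold. Fzd8 had 1200 ± 206 and 1697 ± 329 normalized counts, a log2 difference of 0.50 ± 0.19 (unadjusted p 0.0242, limma adjusted p 0.895), which was -0.10 in the pair of the shared title date. Fzd10 had counts in 1 wild-type library, 22.8 in replicate 2, and 7.85 to 46.9 in the knockout, and its limma difference of 3.13 ± 1.17 depends on the pseudocount and was -1.43 in that pair. Fzd9 was the lower gene. In the families of the other members, 0 of 12 LRP family genes and 1 of 24 tetraspanins had an unadjusted p under 0.05. That share was 5.57% over all genes tested. The family medians were 0.048 and -0.06. The tetraspanin was Tspan15, a partner of the protease ADAM10, with -0.37 ± 0.15 (unadjusted p 0.0368, limma adjusted p 0.895).

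**Figure D5:**
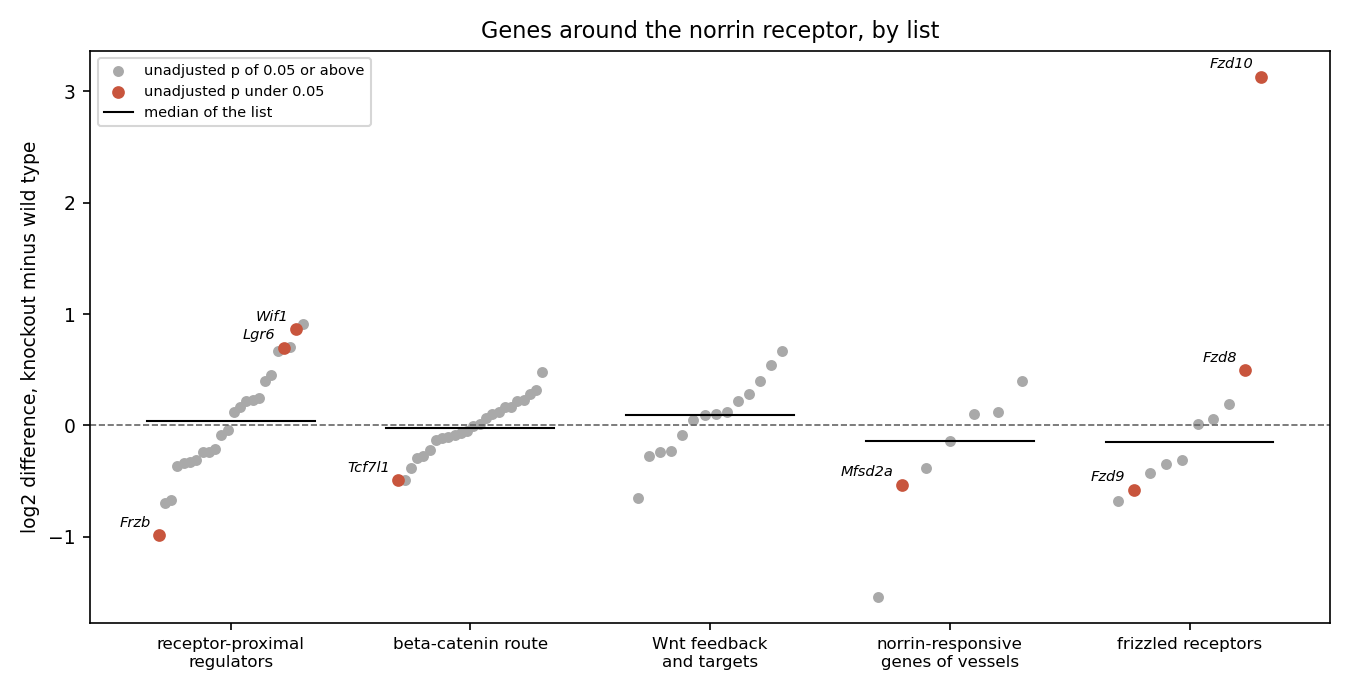
Log2 difference, knockout minus wild type (vertical axis), of each tested gene of the 5 lists, sorted within a list, with a line at each list's median and red points for an unadjusted limma p under 0.05. Medians lie between -0.15 and 0.10, and Frzb, at -0.99, is the lowest of the regulators.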

How the data were processed

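The RNA of 8 libraries, 4 wild type and 4 Ndp knockout, was analysed from the deposited table of 25343 genes. Per the labels' protocols, cells were freed with TrypLE, sorted for Atoh1-GFP, and their RNA made into cDNA with SMART-Seq v4 and into libraries with Nextera XT. Of tools, DESeq2 1.26.0, Salmon 0.14.2 and bcl2fastq 2.20 are named in the submitters' processing notes, as is mm10, without their roles. The deposited signal values are the authors' normalized counts, and whole reads were recovered from them by dividing each library by its step (100% of 202744 values within 1e-06 of a whole number, with a smallest total of 10 reads for any gene). The authors also deposited log2 fold changes and p-values, per the file headers.

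The 18203 genes that reached 10 normalized counts in 4 or more libraries were tested two-sided with limma 3.58.1 (R 4.3.3, intensity trend) on log2(normalized count + 1), which shrinks the changes of low genes, adjusted after Benjamini and Hochberg with a limit of 0.05. The design assumed normalized values, and count tests with edgeR 4.0.16 and DESeq2 1.42.0 on the recovered reads were alternatives. In simulated data over 18203 genes limma called 34 of 100 genes changed 2-fold and 92 of 100 changed 4-fold, with 6 false calls. There edgeR called 30 and 94 with 3 false calls, and DESeq2 38 and 92 with 21 false calls. The simulation gave both genotypes the same dispersion, whereas the median log2 SD here was 0.443 in wild type and 0.279 in the knockout. It therefore checks the code and does not give the recovery in these libraries. Floors of 3 reads cover counting error only, since PCR copies were not told apart by molecular identifiers. Replicate numbers follow accession order. Nothing says that the pools came from separate litters. Sex-linked transcripts differed between libraries, with Xist at 0.981 in knockout replicate 2 and at 412 to 918 in the other knockout libraries. The spread on which the p-values rest thus includes differences between pools of animals, but how independent these pools were is not given.

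Exon lengths and coding sequences came from GENCODE M21 on GRCm38, which holds 96.2% of the table's versioned gene IDs. Named genes are the 5 members, the 3 genes with the smallest p and the 2 with the highest mean of each list, the nearest tested gene on each side of Ndp and the 3 genes most like each member. Genes named for a family rank, Fzd6 and the cell and sex markers were added after their values were seen. One gene of the LRP family list is not reported here. The members and all lists were chosen with earlier results of these data known.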

Additional observations from a re-analysis of the deposited data

Results flagged for a closer look

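In 5 of 110 groups of 4 libraries examined, 1 library stood apart from the other 3 by more than Dixon's 95% limit, and chance alone gives about 1 in 20 such groups. None of them belongs to Ndp, Fzd4, Lrp5, Lrp6 or Tspan12. Fzd10 had 22.8 normalized counts in wild-type replicate 2 and 0 in the other wild-type libraries. Slc38a5 had 27.5 in knockout replicate 4, where the other knockout libraries had 0 to 4.51. In knockout replicate 2 Lrp1b had 44.1 against 0 to 3.16 in the other knockout libraries, Tspan13 had 33602 against 30773 to 31250 there, and Tspan2 had 373 against 660 to 703.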

How the results depend on the processing

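Ndp was lower in the knockout under all 17 alternatives and past the threshold in none of the 16 with a test. They covered the pseudocount, the filter, TMM scaling, edgeR, DESeq2, each library left out and the pair of libraries sharing a title date. No alternative called any receptor gene or pathway list gene. Leaving out 1 library gave log2 differences of -2.59 to -1.74 for Ndp, -0.14 to 0.14 for Fzd4, -0.27 to 0.069 for Lrp6, -0.33 to 0.039 for Tspan12, -0.44 to -0.11 for Lrp5, -0.43 to 1.69 for Maob and -0.28 to 0.32 for Efhc2. It gave -0.51 to 0.072 for the log2 ratio of Lrp5 to Lrp6 and -0.24 to 0.011 for that of Tspan12 to Fzd4. The sign turned with edgeR and DESeq2 for Fzd4 (-0.027 and -0.021), Maob (-0.84 and -0.84) and Efhc2 (-0.12 and -0.11), and without both libraries of the shared date for Lrp6 (0.089), Tspan12 (0.010) and Efhc2 (-0.047). In that pair alone, with no test, the log2 difference was -0.36 for Fzd4, 0.50 for Lrp5, -0.54 for Lrp6 and -0.48 for Tspan12, and that of the ratio of Lrp5 to Lrp6 was 1.05. The cause of these turns was not tested.

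Over all genes limma called 1 gene, edgeR 0 and DESeq2 34. The count was 0 with a pseudocount of 0.1, with at least 50 normalized counts in 4 libraries and without the shared-date libraries, and 0 to 2 with 1 library left out. Levels per kilobase with the longest coding transcript were added after seeing the data. Ndp rests on 10 to 74 reads in the knockout libraries, and Lrp5 on 113 to 310 reads in all 8. No paired analysis was possible because replicate numbers only follow accession order and the labels tie only 1 library of each genotype, by the shared title date.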

Other observations

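Other genes of the receptor families and other cell types gave values that belong to no comparison above. Tspan32, a tetraspanin of blood cells, had 67.7 ± 39.9 and 17.3 ± 11.8 normalized counts (wild type, then knockout, with the SD over 4 libraries), with a log2 difference of -2.33 ± 1.09 (SE, unadjusted p 0.0560, limma adjusted p 0.901). Tspan2 had 417 ± 49.9 and 609 ± 158 (log2 difference 0.51 ± 0.24 SE, limma adjusted p 0.903). Lrp11, Lrp8 and Lrp1b had log2 differences of 0.39 ± 0.27, 0.23 ± 0.21 and -1.60 ± 1.51 (SE), the last from means of 30.1 and 12.1 normalized counts, and none of these 3 passed the test.

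Macrophage markers summed to 2098 to 5138 and 3819 to 6137 normalized counts, with 5 of 12 genes higher at an unadjusted limma p under 0.05 and a median log2 difference of 1.79. Markers of mesenchyme and fibrocytes summed to 22251 to 26650 and 24242 to 37591, with 3 of 12 higher and a median of 0.52. The sum of 37591 was that of knockout replicate 4. The other knockout libraries, at 24242 to 24882, lay inside the wild-type range. Endothelial markers had a median of 1.07 over 8 genes, with 1 higher at that threshold. Of all genes tested, 3.10% were higher at an unadjusted limma p under 0.05, and the median log2 difference was 0.02. Pericyte markers summed to 1410 to 2623 and 1909 to 2415, glial markers to 12361 to 18503 and 9898 to 19631, neuronal markers to 20200 to 26300 and 21846 to 27227, and markers of the stria vascularis to 7972 to 17062 and 12695 to 14417. limma and edgeR called 0 genes of these lists, DESeq2 called 1, Coch of the mesenchyme and fibrocyte list (adjusted p 0.0119), and what part such cells have in the values of the norrin complex was not tested.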
